A study of Homo sapiens with 14 samples.

Results

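The comparison described here sets 12 h against 3 h of SAF-A depletion in HCT116 cells, a human colorectal carcinoma line. The comparison was chosen with earlier results of these data known. It uses 4 of the 14 libraries of the series, 2 per duration, which were picked by their labels. All of them carry the same alleles, osTIR1(F74G) and SAF-A-mAID-Halo, and were treated with 5-Ph-IAA without Nutlin. The 2 vehicle libraries (DMSO) of the same time-course set, from the same degron cells, share in the estimate of the spread and show where each gene started. No library from cells without the degron was part of the set, and there was no vehicle library for each duration. Whether the cells are 1 clone is not stated in the labels, nor is whether replicates were separate cultures, so p-values measure the spread between these libraries, which may be technical. Total RNA was sequenced with a stranded, rRNA-depleting kit.

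SAF-A, encoded by HNRNPU, is an abundant nuclear protein that binds both RNA and DNA and is counted among the nuclear matrix proteins. It has been linked to chromatin compaction, to the retention of noncoding RNA on chromatin and to splicing. In an auxin-inducible degron, the mutant receptor osTIR1(F74G) and the ligand 5-Ph-IAA direct the mAID-tagged protein to the proteasome, so the protein is removed while the mRNA can still be made. The mRNA level of HNRNPU therefore does not check the depletion.

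Libraries of the time-course set held 33.5 to 35.1 M expected counts (M, 1e6 counts), apart from those at 12 h, with 29.6 M in replicate 1 and 3.54 M in replicate 2. The 12 h libraries stood apart from the rest and from each other. Their log2 CPM values (CPM, counts scaled to library size) correlated at r = 0.931 across genes, the lowest value of all pairs, against 0.971 for the 3 h pair and 0.964 for the vehicle pair. Every result below rests on these 2 libraries, so calls are also given without them where they changed. A call means an edgeR quasi-likelihood adjusted p under 0.05 over all 19049 genes tested, and log2 fold changes carry their SE. For a single gene, an exact permutation of 2 libraries against 2 cannot go below p = 0.333. Among 24 colon epithelial markers, 12 reached 1 TPM (a level per transcript length) in all 6 libraries, including EPCAM, KRT8, KRT18 and KRT19, while CDX1, CEACAM5, MUC2, TFF3 and FABP1 were at 0 in all 6. Of 20 markers of other cell types, 16 stayed below 1 TPM in all 6 libraries, with summed levels of 15 and 15.8 TPM in the 3 h libraries and 16.5 to 21.4 TPM at 12 h.

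Between 3 h and 12 h, genes fell more often than they rose. Of 19049 genes tested, 1551 (8.14%) were called: 448 (2.35%) were higher at 12 h and 1103 (5.79%) were lower. The counts of each list below are to be read beside these shares. Most changes were small: 59 of the higher and 81 of the lower genes changed at least 2-fold, and the median log2 fold change of all tested genes was -0.0082. The 3 h and 12 h values did not overlap for 1550 of the 1551 called genes, but this was also so for 9839 (51.7%) of all tested genes. With each of the 6 libraries left out in turn, 362 of the calls held every time, 55 higher and 307 lower. The count was lowest, at 612, without 12 h replicate 1, and was 663 without 3 h replicate 1 and 952 without 3 h replicate 2.

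The fall concentrated in transcripts of low GC content. Of the 3415 genes in the lowest GC quintile (26.8 to 41.2% GC), 672 (19.7%) were lower and 15 (0.439%) were higher, with a median log2 fold change of -0.25. In the highest quintile (57.9 to 74.4% GC), 34 were lower and 123 higher, with a median of 0.10. Both 12 h libraries showed the trend: against the mean of the 3 h libraries, the lowest quintile had a median of -0.24 in replicate 1 and -0.27 in replicate 2. Called lower genes had a median GC content of 39.9%, called higher genes 53.5% and all genes 48.5%. With the trend on GC removed from each library, 753 genes were called, 329 higher and 424 lower, and 578 of them were among the 1551. The duration and the GC trend cannot be told apart here, because both 12 h libraries show the trend. Values after this correction are given below where it ended a call or moved a value by more than 1.5 times. A fit on all 14 libraries of the series, which takes the spread from both sets, called 1230 genes between 12 h and 3 h, and thinning every library to the counts of the shallowest gave 1152. Calls that these ended are named with the genes below.

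**Figure D1:**
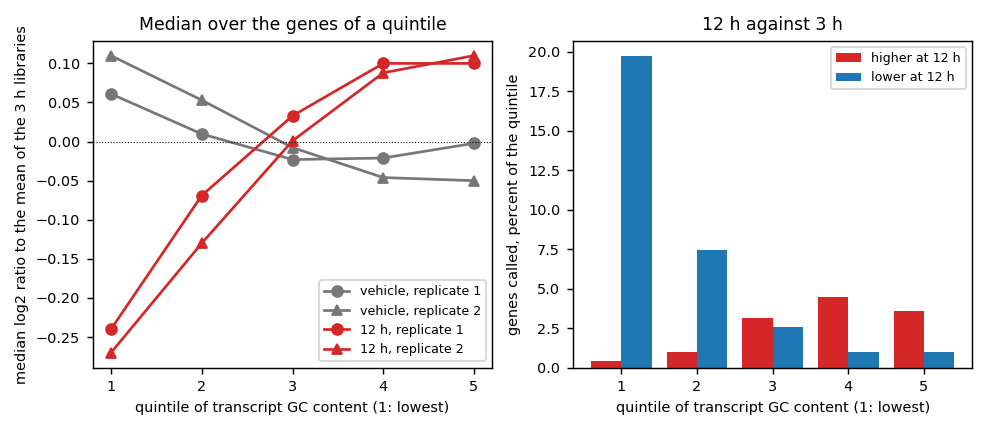
Median log2 ratio of each vehicle and 12 h library to the mean of the 3 h libraries (left) and percent of genes called higher or lower at 12 h than at 3 h (right), by quintile of transcript GC content. In both 12 h libraries the median climbs from about -0.25 in the lowest quintile to 0.10 in the highest, and 19.7% of the lowest quintile was called lower.

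HNRNPU mRNA itself was higher at 12 h. The gene lies at chr1:244840638-244864560 (minus strand, GRCh38). It was at 524 and 547 CPM at 3 h, close to the vehicle libraries at 509 and 544 CPM, and at 671 and 636 CPM at 12 h. Both 12 h libraries lay above the other 4. The log2 fold change from 3 h to 12 h was 0.29 ± 0.063 (adjusted p = 0.0151). It was 0.55 after GC correction (adjusted p = 0.00165), but the call was lost without 3 h replicate 1 (0.24) and without 12 h replicate 1 (0.25).

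Among 33 genes of the nuclear matrix and lamina, 6 (18.2%) were called higher and 3 (9.09%) lower, and the median log2 fold change was 0.14. HNRNPU itself, described above, is among the 6 higher members. After GC correction the list had 4 higher and 2 lower members, and 4 of these calls were shared with those made before it. The lower members with calls that held were LBR and TMPO. LBR, the lamin B receptor of the inner nuclear membrane, which is also a sterol reductase, was at 155 and 157 CPM at 3 h and at 95.7 and 86.0 CPM at 12 h. Its 12 h values were the lowest of the 6 libraries, and the log2 fold change was -0.77 ± 0.084 (adjusted p = 0.000899), or -0.50 after GC correction. TMPO, which encodes the lamina-associated LAP2 proteins, fell by 0.51 on the log2 scale (adjusted p = 0.00135). MATR3, an RNA-binding nuclear matrix protein, was called lower at -0.35 (adjusted p = 0.0138), but at -0.072 after GC correction it was not (adjusted p = 0.630), nor without 3 h replicate 1 (-0.31). The higher members had weaker support. AKAP8L, a nuclear matrix-associated anchoring protein, went from 62.9 and 63.7 CPM to 90.4 and 86.8 CPM (0.49 ± 0.10, adjusted p = 0.00896), with the call lost without either 3 h library (0.46 and 0.48) or 12 h replicate 1 (0.45). NUMA1, a nuclear and spindle pole protein, was called at 0.35 (adjusted p = 0.0191), but not without 3 h replicate 1 (0.28), 12 h replicate 1 (0.36) or 12 h replicate 2 (0.32), nor after GC correction (0.23). SAFB and SMC1A were called higher too, at 0.52 and 0.43, but not after GC correction (0.43 and 0.42), without either 3 h library (0.38 to 0.53) or without 12 h replicate 2 (0.33 and 0.37), nor, for SMC1A, without 12 h replicate 1 (0.48). By contrast, the lamin genes LMNA (0.10), LMNB1 (0.089) and LMNB2 (0.12) were not called. Against 9 calls in all, the list held 2 without 3 h replicate 1, 5 without 3 h replicate 2, 4 without 12 h replicate 1 and 4 with all 14 libraries, where MATR3, NUMA1, SAFB and SMC1A lost theirs (adjusted p from 0.0723 to 0.100). SAFB also lost its call after thinning (0.42, adjusted p = 0.0687).

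SRRM2, a scaffold protein of nuclear speckles, rose most among 44 speckle and splicing genes. It lies at chr16:2752329-2772538 on the plus strand. SRRM2 was at 105 and 123 CPM at 3 h, at 113 and 142 CPM in vehicle libraries, and at 246 and 288 CPM at 12 h. The lowest 12 h value was well above the highest of the other 4 libraries, and the level at 12 h was 2.32-fold that at 3 h (log2 fold change 1.22 ± 0.12, adjusted p = 0.000802). The call held with each library left out and after GC correction (1.10), but in the fit on all 14 libraries, at the same fold change, it was lost (adjusted p = 0.0710). SON, the other large speckle scaffold, had a log2 fold change of 0.21 and SRRM1 of 0.30, and neither was called. The whole list had 5 members (11.4%) higher and 5 (11.4%) lower, with a median of -0.02.

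Other speckle genes were called in both directions. THRAP3, a splicing-associated protein with serine- and arginine-rich stretches, rose from 246 and 242 CPM to 326 and 316 CPM (0.40 ± 0.066, adjusted p = 0.00403). The SR protein genes SRSF2, SRSF3 and SRSF6, whose products bind exons and promote splicing, were called lower, SRSF6 at -0.35 with a call lost without either 3 h library (-0.38 and -0.36), without 12 h replicate 1 (-0.28) and after GC correction (-0.15). SRSF2 went from 462 and 460 CPM to 374 and 335 CPM (-0.37 ± 0.067, adjusted p = 0.00665), a call that held in every leave-out and after GC correction. SRSF3 was at -0.32 (adjusted p = 0.00772), and its call was lost without 3 h replicate 1 (-0.31) and after GC correction (-0.10). SF3B1, a core component of the U2 snRNP, was at -0.28 (adjusted p = 0.0107), a call lost without 3 h replicate 1 (-0.27) or 12 h replicate 1 (-0.28) and after GC correction (-0.11). SRSF4 was the SR protein gene called higher, at 0.53 ± 0.10 (adjusted p = 0.00845), though not without 3 h replicate 1 (0.48) or 12 h replicate 1 (0.39). After GC correction 7 members of the list were higher and 1 lower, 5 of them shared with the 10 calls made before it, and the list held 4 calls without 3 h replicate 1, 5 without 12 h replicate 1 and 6 with all 14 libraries. There SRSF3 and SF3B1 were not called (adjusted p = 0.0750 and 0.0711), and thinning ended the calls of SRSF3 (-0.23) and SRSF6 (-0.20).

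NEAT1, the long noncoding RNA on which paraspeckles are built, more than doubled between 3 h and 12 h. It lies at chr11:65422774-65445540 on the plus strand. Its level was 191 and 178 CPM in vehicle libraries, 119 and 139 CPM at 3 h, and 270 and 272 CPM at 12 h. The 3 groups did not overlap, with 3 h below and 12 h above vehicle. The 12 h level was 2.10-fold that at 3 h (log2 fold change 1.07 ± 0.087, adjusted p = 0.000309) and held in every leave-out and after GC correction. Against vehicle, NEAT1 was at -0.52 at 3 h, which missed the threshold (adjusted p = 0.0672), and at 0.55 at 12 h (adjusted p = 0.00187). MALAT1, an abundant RNA of nuclear speckles, had 1547 and 1781 CPM at 3 h and 2020 and 2120 CPM at 12 h (0.31 ± 0.069, adjusted p = 0.0163). Its vehicle values of 1801 and 2001 CPM lay between, and the call was lost without 3 h replicate 1 (0.20) or 12 h replicate 2 (0.26). After GC correction it was 0.50. Of 14 nuclear noncoding RNAs and paraspeckle genes tested, 2 (14.3%) were higher and 1 (7.14%) lower. The lower one, SFPQ, a paraspeckle protein gene, was at -0.26 (adjusted p = 0.0379), with a call lost without any 1 of the 3 h or 12 h libraries (-0.24 to -0.31), after thinning (-0.22) and with DESeq2's size factors (-0.24). The fit on all 14 libraries ended the call of MALAT1 (0.31, adjusted p = 0.219). The list held 1 call without 3 h replicate 1 and 1 without 12 h replicate 2.

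**Figure D2:**
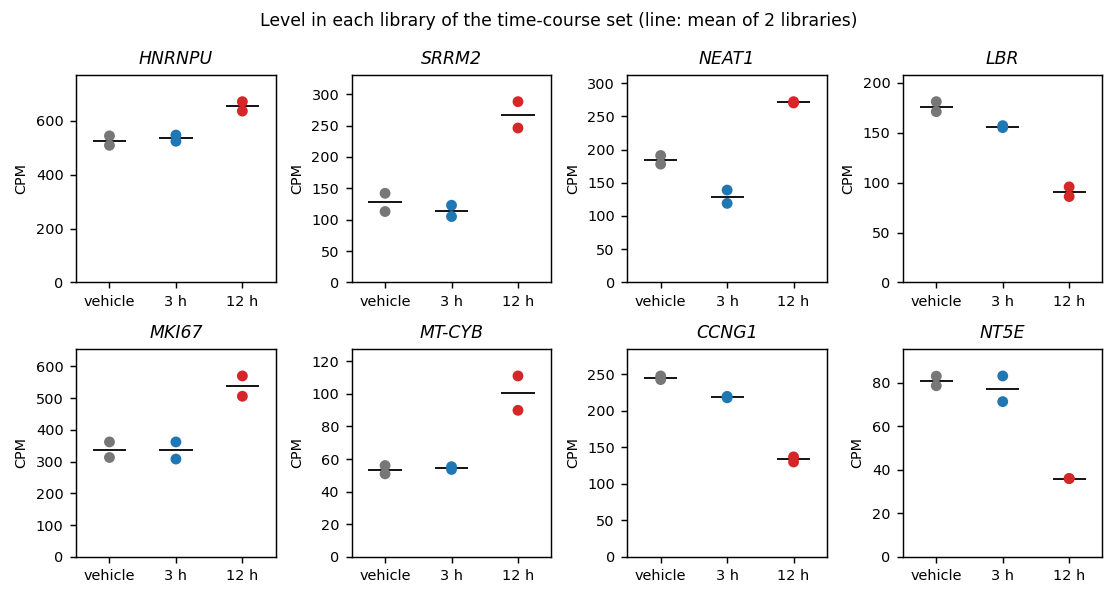
CPM of 8 genes in each of the 6 time-course libraries (points), with the mean of the 2 libraries of a group as a line and each axis starting at 0. SRRM2, NEAT1, MKI67 and MT-CYB have both 12 h libraries above the 3 h libraries, LBR, CCNG1 and NT5E have both below, and HNRNPU moves least.

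Among 26 hnRNP genes, which encode proteins that package nascent RNA, 3 (11.5%) were higher and 4 (15.4%) lower, with a median of -0.0095. RBMX went from 335 and 348 CPM to 247 and 208 CPM (-0.57 ± 0.11, adjusted p = 0.00839) and HNRNPH1 from 403 and 378 CPM to 314 and 281 CPM (-0.39 ± 0.075, adjusted p = 0.00871). Both calls held with each library left out and both were lost after GC correction (-0.35 and -0.07). HNRNPA2B1 was higher, at 252 and 269 CPM against 195 and 197 CPM (0.41 ± 0.10, adjusted p = 0.0291), but its call was lost without any 1 of the 3 h or 12 h libraries (0.34 to 0.45). The SAF-A paralogs HNRNPUL1 and HNRNPUL2 both had a log2 fold change of 0.43. HNRNPUL1 was called (adjusted p = 0.0218), though not without any 1 of the 3 h or 12 h libraries (0.35 to 0.51) or after GC correction (0.31). HNRNPUL2 was not called. With all 14 libraries, neither HNRNPA2B1 nor HNRNPUL1 was called (adjusted p = 0.134 and 0.0635). The list went from 7 calls to 3 in that fit, to 2 or 3 without any 1 of the 3 h or 12 h libraries, and to 11 without either vehicle library. After GC correction it had 4 higher and 1 lower members, with 1 call shared.

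Most of the few genes raised at 3 h against vehicle were lower again at 12 h. At 3 h against vehicle, 13 genes (0.0682%) were called, 12 higher and 1 lower. Of the 12 higher genes, 9 were called lower at 12 h than at 3 h. Because the 3 h libraries enter both comparisons, the values are given side by side and the return is not an independent result. DUSP5, a nuclear phosphatase that switches off ERK and is induced by it, had 68.9 and 66.4 CPM in vehicle libraries, 119 and 123 CPM at 3 h, and 70.8 and 66.6 CPM at 12 h. Its 12 h values lay among or next to the vehicle values, with log2 fold changes of -0.81 ± 0.089 against 3 h (adjusted p = 0.000899) and 0.032 against vehicle (adjusted p = 0.882). THBS1, a matrix glycoprotein, had 45.1 and 43.7, then 84.9 and 96.7, then 52.6 and 50.4 CPM (-0.81 ± 0.10, adjusted p = 0.00137). DKK1, a secreted Wnt antagonist, had 475 and 477, then 690 and 657, then 458 and 422 CPM (-0.61 ± 0.063, adjusted p = 0.000899). PLAU, the urokinase gene, and PLK2, a polo-like kinase gene and p53 target, were at -0.71 and -0.49 from 3 h to 12 h. These 5 calls held in every leave-out, while that of C1orf116 (-0.62) was lost without any 1 of the 3 h or 12 h libraries (-0.57 to -0.69), with all 14 libraries (adjusted p = 0.0569) and after thinning (adjusted p = 0.0948).

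AREG, a ligand of the EGF receptor, did not come all the way down. It had 126 and 122 CPM in vehicle libraries, 214 and 213 CPM at 3 h, and 146 and 156 CPM at 12 h. It fell by 0.51 from 3 h (SE 0.076, adjusted p = 0.00270) and was still 0.28 above vehicle (adjusted p = 0.0359). EPHA2, a receptor tyrosine kinase gene (260 and 267 CPM at 3 h, 219 and 235 CPM at 12 h), and AMOTL2, which binds YAP (75.8 and 84.8, then 65.7 and 60.0 CPM), were not called between 3 h and 12 h, with adjusted p of 0.0845 and 0.0643. After GC correction both were called lower than at 3 h, EPHA2 at -0.34 (adjusted p = 0.0196) and AMOTL2 at -0.46 (adjusted p = 0.0301). Their values before it were -0.22 and -0.34. Both were called above vehicle at 12 h, by 0.40 and 0.59. CCN1, a secreted YAP target, was not called in the main fit either (adjusted p = 0.0628). Its 12 h libraries differed from each other, at 19.4 and 12.6 CPM. CCN1 was at -0.63, at -1.08 without 12 h replicate 1 and at -0.47 without 12 h replicate 2.

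**Figure D3:**
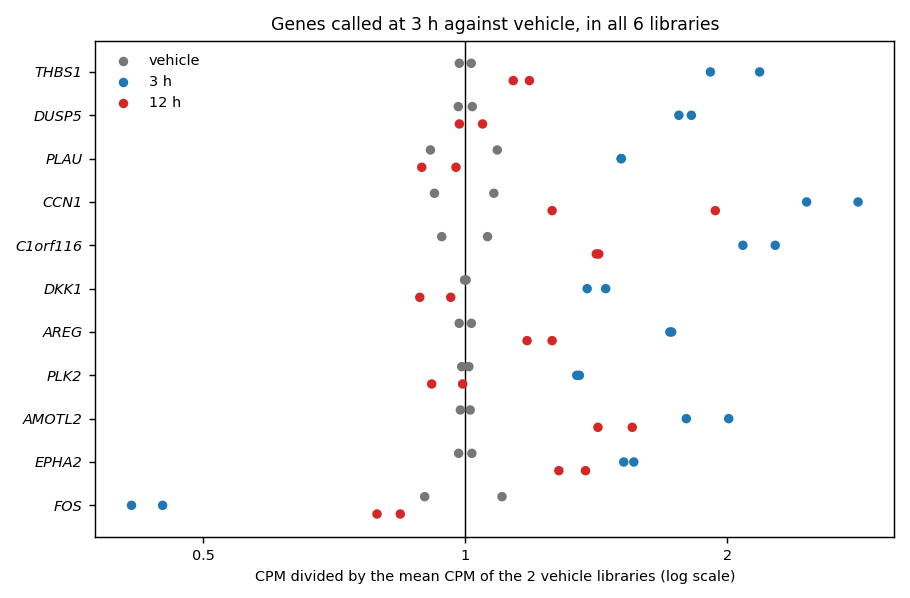
CPM of 11 of the 13 genes called at 3 h against vehicle, divided by the mean of the 2 vehicle libraries (log axis), with 1 point per library and colours for vehicle, 3 h and 12 h. For FOS both 3 h libraries lie below 0.5, and for the other 10 genes the 12 h points lie to the left of the 3 h points.

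In the wider lists the called members were also lower from 3 h to 12 h. Against vehicle at 12 h, the ERK list had 3 members called higher and 1 lower, with a median of 0.11. The YAP-TEAD list had 5 higher and 2 lower against vehicle, with a median of 0.10. From 3 h to 12 h, the median of 26 ERK feedback genes and EGF receptor ligands tested was -0.21. Of these, 5 (19.2%) were lower and none higher, against 5.79% and 2.35% of all genes. Besides DUSP5 and AREG these were EREG, DUSP6 and TGFA. With either 1 of the vehicle libraries left out, 9 were lower and 1 higher. DUSP6, a cytoplasmic ERK phosphatase, had 87.7 and 84.0 CPM at 3 h and 56.3 and 59.5 CPM at 12 h (-0.58 ± 0.094, adjusted p = 0.00376). Vehicle libraries were at 64.0 and 63.0 CPM, and without 12 h replicate 1 the call was lost (-0.53). EREG, another EGF receptor ligand, was at -0.54 ± 0.069 (adjusted p = 0.00137), and at -0.21 after GC correction, where it was not called. TGFA was at -0.38 (adjusted p = 0.0165), and was not called without 3 h replicate 2 (-0.31) or 12 h replicate 1 (-0.44). The list had 7 lower and no higher members after GC correction, and without vehicle replicate 1 or 2 it had 9 lower and 1 higher.

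Of 20 YAP and TEAD target genes, 3 were lower and none higher, with a median of -0.21. This became 6 and 5 lower without 1 of the vehicle libraries. NT5E, the CD73 ecto-nucleotidase gene, had 83.1 and 71.3 CPM at 3 h and 36.0 and 35.9 CPM at 12 h, with vehicle libraries at 83.0 and 78.6 CPM. It was 2.15-fold lower at 12 h (log2 fold change -1.10 ± 0.11, adjusted p = 0.000802), and unlike DUSP5 its 12 h libraries lay below the vehicle libraries as well (-1.17, adjusted p = 0.000229). F3, the tissue factor gene, had 56.4 and 57.2 CPM at 3 h and 30.6 and 28.2 CPM at 12 h (-0.93 ± 0.11, adjusted p = 0.00135). CRIM1, a membrane protein gene, was at -0.59 ± 0.10 (adjusted p = 0.00520). All 3 calls held in every leave-out and after GC correction. Without vehicle replicate 1 the list had 6 lower members and without vehicle replicate 2 it had 5.

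The immediate early genes, which respond to signals without new protein synthesis, included several that rose. Of 29 tested, 4 (13.8%) were higher and 1 (3.45%) lower, and the median was -0.058. FOS had 37.3 and 30.4 CPM in vehicle libraries, 15.2 and 14 CPM at 3 h, and 28.5 and 26.8 CPM at 12 h. It was the gene called lower at 3 h, and it rose by 0.94 ± 0.15 from 3 h to 12 h (adjusted p = 0.00332), to values just under the vehicle libraries. Without 12 h replicate 1 its adjusted p was 0.0502. EGR1, a zinc finger transcription factor gene, rose from 9.29 and 8.82 CPM to 16.7 and 20.8 CPM (1.01 ± 0.18, adjusted p = 0.00668), a call that held in every leave-out and after GC correction. NR4A1, an orphan nuclear receptor gene, and ZFP36, whose product destabilises AU-rich mRNAs, were called higher at 0.65 and 0.83. Both calls were lost without either 3 h library or 12 h replicate 1 (0.55 to 0.93 over these 6 values) and after GC correction (0.53 and 0.71). NR4A1 also lost it without 12 h replicate 2 (0.50), and both lost it after thinning (0.51 and 0.64). The list held 3 calls without either 3 h library or without 12 h replicate 1. MCL1, an anti-apoptotic BCL2 family gene, was the member called lower, at -0.40 ± 0.074 (adjusted p = 0.00751), and JUN, JUNB and MYC were not called.

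The promoters of genes from both directions are shown here because immediate early genes and EGF receptor ligand genes are classical targets of CREB, SRF and AP-1. Of 17 genes, the 4 immediate early genes that rose and 13 growth factor, YAP or early genes that fell, 15 had a RefSeq promoter (build GRCh38.p14). The windows hold the 250 bases before the start of the gene, read 5' to 3' on the gene's strand: EGR1 at chr5:138465229-138465478, FOS at chr14:75278578-75278827, AREG at chr4:74444886-74445135 and F3 at chr1:94541760-94542009 (minus strand). Capitals mark matches on either strand to TGACG (the core of a CRE), TGANTCA (AP-1), GGAATG (TEAD) or the CArG box of SRF.
EGR1: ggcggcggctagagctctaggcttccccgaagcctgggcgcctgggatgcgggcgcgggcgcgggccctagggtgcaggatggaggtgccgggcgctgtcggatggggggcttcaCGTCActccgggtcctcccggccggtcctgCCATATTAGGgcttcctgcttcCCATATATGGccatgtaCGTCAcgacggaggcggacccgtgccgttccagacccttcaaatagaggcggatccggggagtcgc
FOS: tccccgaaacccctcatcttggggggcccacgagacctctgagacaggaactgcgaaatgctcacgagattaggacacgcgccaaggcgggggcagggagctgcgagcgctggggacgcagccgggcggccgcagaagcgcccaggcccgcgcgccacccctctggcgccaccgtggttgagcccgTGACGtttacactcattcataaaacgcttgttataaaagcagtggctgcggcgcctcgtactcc
AREG: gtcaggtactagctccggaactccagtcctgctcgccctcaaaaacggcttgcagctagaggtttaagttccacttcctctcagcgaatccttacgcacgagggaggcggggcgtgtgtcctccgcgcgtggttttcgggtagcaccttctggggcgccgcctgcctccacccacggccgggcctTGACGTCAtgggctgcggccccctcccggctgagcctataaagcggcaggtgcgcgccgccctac
F3: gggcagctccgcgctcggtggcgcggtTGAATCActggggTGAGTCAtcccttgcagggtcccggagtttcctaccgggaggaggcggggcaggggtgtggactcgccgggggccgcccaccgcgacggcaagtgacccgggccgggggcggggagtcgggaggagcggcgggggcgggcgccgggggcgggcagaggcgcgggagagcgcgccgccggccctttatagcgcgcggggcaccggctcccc
The core TGACG was found in 2 of the 4 promoters of genes that rose and in 5 of the 11 of genes that fell, against 21.7% of 27305 promoters of this length. In AREG 2 overlapping matches on opposite strands form 1 palindrome. EGR1 alone had CArG boxes, 2 in this window, which occur in 1.14% of all promoters. Bases further upstream were not searched, so a CArG box there, in FOS or another gene, would be missed. Only 1 start per gene was used, so matches at any other start, in NR4A1 or another gene, would be missed too. The windows of PLAU and DUSP6 lay inside the annotated span of the gene. F3 alone had TGANTCA, 2 matches, found in 6.6% of all promoters. GGAATG was found in 1 of the 4 and in 4 of the 11, against 11.9% of all promoters. These are matches to letters only, and none of the libraries measured binding.

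RNF43, like DKK1 a gene of Wnt feedback, moved the other way, and ZNRF3 did so with weaker support. Of 16 Wnt target genes tested, 2 (12.5%) were higher and 1 (6.25%), DKK1, was lower, with a median of 0.16. This median was 0.065 after GC correction and -0.00068 without 12 h replicate 2. RNF43, a ubiquitin ligase that removes Wnt receptors from the membrane, had 29.9 and 25.8 CPM in vehicle libraries, 16.7 and 16.6 CPM at 3 h, and 31.7 and 30.4 CPM at 12 h. It rose by 0.91 ± 0.14 (adjusted p = 0.00270) in every leave-out, to values just above vehicle. Its paralog ZNRF3 was called at 0.66 ± 0.17 (adjusted p = 0.0364), but not without either 3 h library (0.53 and 0.75), 12 h replicate 1 (0.45), after GC correction (0.56) or after thinning (0.73).

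Targets of the tumour suppressor p53, which HCT116 cells carry in active form, were lower where they changed. Of 50 tested, 12 (24.0%) were called lower and none higher, against 5.79% and 2.35% of all genes, and the median log2 fold change was -0.19. PLK2 and TGFA, described above, are among the 12. CCNG1, encoding cyclin G1, had 248 and 243 CPM in vehicle libraries, 220 and 218 CPM at 3 h, and 130 and 137 CPM at 12 h. Its level at 3 h was 1.65-fold that at 12 h (log2 fold change -0.72 ± 0.072, adjusted p = 0.000802). After GC correction it was -0.47. MDM2, the ubiquitin ligase gene that limits p53, went from 311 and 316 CPM to 220 and 230 CPM (-0.48 ± 0.066, adjusted p = 0.00182), with vehicle libraries at 293 and 296 CPM. KITLG, the KIT ligand gene, was at -0.52 ± 0.063 (adjusted p = 0.00135), or -0.24 after GC correction, where the call was lost (adjusted p = 0.0551). RRM2B, a p53-inducible ribonucleotide reductase subunit, was at -0.45 ± 0.086 (adjusted p = 0.00814) and also lost its call after GC correction (-0.14). CDKN1A, the p21 cell cycle inhibitor gene and the best known target, was not called (-0.18), nor were BAX (-0.058), GDF15 (0.15) and BBC3 (-0.30). The list had 9 lower members after GC correction, 6 without 12 h replicate 1, 8 without 3 h replicate 1 and 7 without 3 h replicate 2, with none higher in any of these. After thinning it had 6.

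RNAs encoded by the mitochondrial genome were higher at 12 h where they were called. Of 15 tested, 6 (40.0%) were called higher and none lower, with a median of 0.58, and 14 had a log2 fold change above 0. MT-CYB, the cytochrome b gene of complex III, had 50.9 and 56.0 CPM in vehicle libraries, 55.3 and 53.6 CPM at 3 h, and 89.9 and 111 CPM at 12 h (0.86 ± 0.11, adjusted p = 0.00149). MT-CO1, a core subunit of complex IV, had 687 and 744 CPM at 3 h and 1047 and 1281 CPM at 12 h (0.70 ± 0.11, adjusted p = 0.00288). MT-ND5, of complex I, was at 0.58 ± 0.087 (adjusted p = 0.00272). These 3 calls held in every leave-out and after GC correction. MT-ND4 lost its call without 12 h replicate 1 (0.43), as did MT-CO3 (0.43), which also lost it without 3 h replicate 1 (0.35) or 12 h replicate 2 (0.33). MT-CO2 lost it without 12 h replicate 1 (1.16), without 12 h replicate 2 (0.78) and after GC correction (0.98). Mitochondrial RNA made up 0.251% and 0.291% of counts at 12 h, 0.167% and 0.178% at 3 h, and 0.163% and 0.215% in vehicle libraries. It reached 0.189 to 0.344% in the 8 libraries of the other set, which includes vehicle libraries, and its part in these calls was not tested. The list had 3 calls without 12 h replicate 1, 4 without 12 h replicate 2 and 9 without vehicle replicate 1. In the fit on all 14 libraries it had 3, with those of MT-CO1, MT-CO2 and MT-CO3 lost (adjusted p = 0.0514, 0.0518 and 0.0837), and DESeq2 did not call MT-CO2 (1.01, adjusted p = 0.123).

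Of 61 nuclear genes of the respiratory chain tested, 9 (14.8%) were called lower and none higher, against 5.79% and 2.35% of all genes, and the median was -0.09. COX5B, a complex IV subunit gene, went from 147 and 131 CPM to 97.6 and 82.2 CPM (-0.60 ± 0.10, adjusted p = 0.00384). ATP5PB, of the ATP synthase stalk, went from 391 and 368 CPM to 297 and 287 CPM (-0.37 ± 0.065, adjusted p = 0.00532). Both held in every leave-out and after GC correction, while SDHD of complex II, at -0.50, lost its call without 3 h replicate 1 (-0.38) and after GC correction (-0.34). After GC correction the list had 5 lower and 2 higher members. It had 2 lower without 3 h replicate 1, 5 without 12 h replicate 1, 6 without 12 h replicate 2 and 5 after thinning. With all 14 libraries 1 call was left, and ATP5PB (adjusted p = 0.0703) and SDHD (adjusted p = 0.0551) were not called.

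Histone genes of the replication-dependent clusters, which are expressed in S phase from mRNAs that end in a stem loop, were mostly lower where called. Of 50 tested, 13 (26.0%) were lower and 1 higher, with a median of -0.16. H4C12 had 345 and 323 CPM at 3 h and 225 and 249 CPM at 12 h (-0.50 ± 0.073, adjusted p = 0.00234). H4C1 had 74.8 and 68.3 CPM at 3 h and 48.4 and 44.9 CPM at 12 h (-0.60 ± 0.10, adjusted p = 0.00520). Vehicle libraries had 333 and 337 CPM for H4C12 and 74.4 and 68.1 CPM for H4C1, near the 3 h values. The exception was H2BC12, with 597 and 621 CPM at 3 h and 844 and 814 CPM at 12 h (0.45 ± 0.08, adjusted p = 0.00603). These 3 calls held in every leave-out and after GC correction, and the GC-corrected list had 16 lower and 1 higher. Without 12 h replicate 1, however, 3 members were lower and 1 higher, and without 3 h replicate 1, 5 were lower and 1 higher. Without vehicle replicate 1 there were 20 lower and 2 higher, and with all 14 libraries 8 lower and 1 higher. Histone genes are near-identical in their coding sequence, so the split of reads among them by the authors' counting is uncertain. SLBP, whose product binds the histone stem loop, was at -0.36 ± 0.078 (adjusted p = 0.0147), with a call lost without 3 h replicate 1 (-0.35), without 12 h replicate 1 (-0.41) and with all 14 libraries (adjusted p = 0.0752).

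Cell cycle genes moved in both directions. Of 62 genes of G2 and mitosis, 7 (11.3%) were higher and 12 (19.4%) lower, with a median of -0.089. MKI67, the Ki-67 proliferation marker that coats mitotic chromosomes, had 308 and 362 CPM at 3 h and 506 and 570 CPM at 12 h (0.68 ± 0.095, adjusted p = 0.00200). This call was lost with all 14 libraries (0.67, adjusted p = 0.0807). FOXM1, a transcription factor gene of the G2 programme, had 37.1 and 40.4 CPM and then 58.5 and 62.7 CPM (0.63 ± 0.11, adjusted p = 0.00549), with a call lost without 3 h replicate 1 (0.56). TTK, a spindle checkpoint kinase gene, had 130 and 127 CPM at 3 h and 82.0 and 82.5 CPM at 12 h (-0.64 ± 0.079, adjusted p = 0.00135). BUB3, of the same checkpoint, was at -0.40 ± 0.063 (adjusted p = 0.00338), or -0.25 after GC correction, with its call kept. CDK1 and MAD2L1 were at -0.44 and -0.51 (adjusted p = 0.00282 and 0.00344), but at -0.14 and -0.30 after GC correction, where neither was called. After that correction the list had 6 higher and 3 lower members and its median changed sign, to 0.032. The 19 calls fell to 7 without 3 h replicate 1, 9 without 3 h replicate 2, 9 without 12 h replicate 1 and 7 with all 14 libraries, where CDK1 (adjusted p = 0.0735) and MAD2L1 (adjusted p = 0.0509) were not called.

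Of 49 genes of S phase, 2 (4.08%) were higher and 7 (14.3%) lower, with a median of -0.07. These 9 calls fell to 2 without 3 h replicate 1, 3 without 12 h replicate 1 and 5 after GC correction, 1 of them higher and 4 lower. POLE2, a subunit of DNA polymerase epsilon, had 41.2 and 39.2 CPM at 3 h and 23.4 and 24.9 CPM at 12 h (-0.75 ± 0.13, adjusted p = 0.00539), with a call lost without 12 h replicate 1 (-0.69). DSCC1, of an alternative clamp loader, was at -0.66 ± 0.11 (adjusted p = 0.00409) and lost its call in the same way (-0.62). The MCM2 to MCM7 helicase genes and PCNA were not called, with log2 fold changes between -0.21 and 0.079. In a bulk library, fewer cells in a phase and less RNA per cell cannot be told apart.

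**Figure D4:**
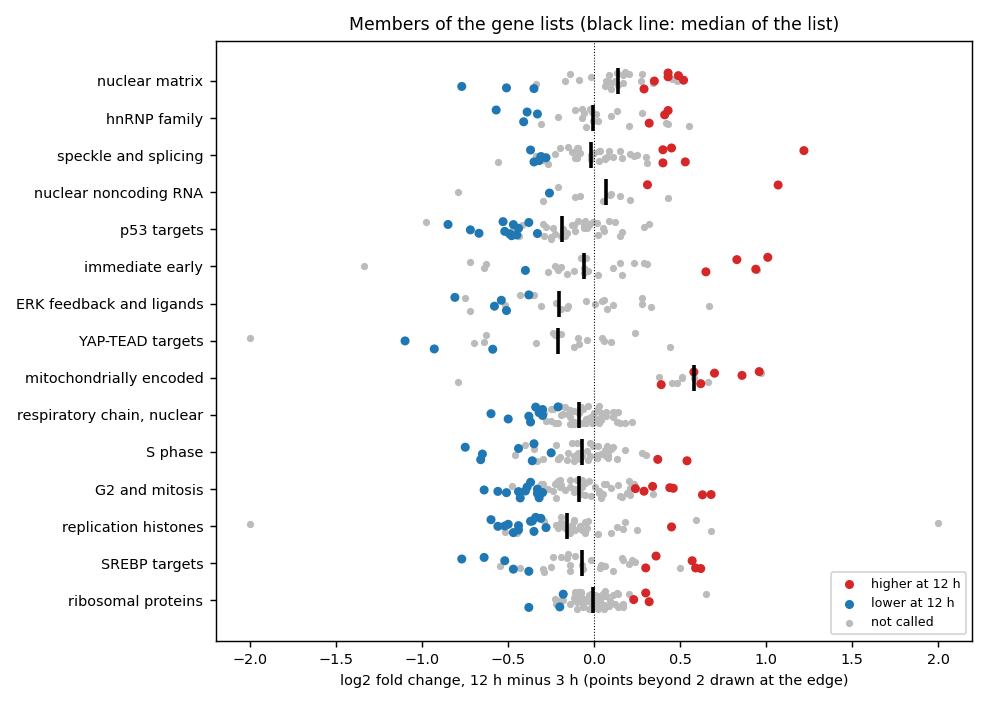
Log2 fold change from 3 h to 12 h of each tested member of 15 gene lists (points), coloured where called higher or lower, with the list median as a black line. The mitochondrially encoded list has its median at 0.58, while the p53 list, the ERK list and the YAP-TEAD list have medians of -0.19, -0.21 and -0.21 and no member called higher. The 3 points beyond 2 in size are drawn at the edge.

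SREBP targets, the genes of fatty acid and cholesterol synthesis, were called in both directions. Of 35, 5 (14.3%) were higher and 5 (14.3%) lower, with a median of -0.069. FASN, the fatty acid synthase gene, went from 174 and 184 CPM to 262 and 290 CPM (0.62 ± 0.079, adjusted p = 0.00137), and SREBF1, the transcription factor gene that drives it, from 48.4 and 47.6 CPM to 67.2 and 78.1 CPM (0.57 ± 0.11, adjusted p = 0.00728). SCD, a desaturase gene, was at 0.36 ± 0.071 (adjusted p = 0.00944), with the call lost without 12 h replicate 2 (0.25). ACACA and LPIN1 were the other higher members, at 0.30 and 0.59, both lost without either 3 h library (0.24 to 0.61), without 12 h replicate 1 (0.38 and 0.39) and after GC correction (0.27 and 0.57), and ACACA also without 12 h replicate 2 (0.21). The lower members included MSMO1, a sterol demethylase gene that went from 58.0 and 52.0 CPM to 33.8 and 29.3 CPM (-0.77 ± 0.12, adjusted p = 0.00317), or -0.51 after GC correction. IDI1 and INSIG1 were called at -0.47 and -0.52, but not without 3 h replicate 1 (-0.45 and -0.38) or after GC correction (-0.31 and -0.50), nor without 12 h replicate 2 for IDI1 (-0.39) and 12 h replicate 1 for INSIG1 (-0.39). STARD4, a sterol carrier gene (-0.64), and ACSL3 (-0.38) lost their calls after GC correction (-0.26 and -0.12), and also without 3 h replicate 2 (-0.59) and 12 h replicate 1 (-0.55) for STARD4 and without 3 h replicate 1 (-0.36) and 12 h replicate 2 (-0.34) for ACSL3. After GC correction 3 members of the list were higher and 1 lower, and it held 5 calls without 3 h replicate 1. It held 6 with all 14 libraries, where FASN (0.61, adjusted p = 0.291), MSMO1 (adjusted p = 0.0505), SCD (adjusted p = 0.0518), ACACA and IDI1 (adjusted p = 0.156 and 0.0821) were not called. Thinning ended the calls of STARD4 (-0.41), IDI1 (-0.41), INSIG1 (-0.57) and LPIN1 (0.73). NPC1, which exports cholesterol from lysosomes, was lower in a separate list, from 46.5 and 51.7 CPM to 31.9 and 27.4 CPM (-0.69 ± 0.13, adjusted p = 0.00764).

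In the heat shock list, 2 of 25 genes were higher and 3 lower, and the 5 calls became 2 or 3 without any 1 of the 3 h or 12 h libraries, 9 and 8 without 1 of the vehicle libraries and 2 with all 14 libraries. HSP90AA1, a cytosolic chaperone gene, had 1843 and 1649 CPM at 3 h and 2427 and 2621 CPM at 12 h (0.53 ± 0.14, adjusted p = 0.0363). Its vehicle libraries differed widely, at 1836 and 2825 CPM, and the call was lost without 3 h replicate 2 (0.44) or either 12 h library (0.58 and 0.46). HSPA5, the endoplasmic reticulum chaperone gene, also had vehicle libraries that differed. It had vehicle values of 149 and 235 CPM, 165 and 156 CPM at 3 h, and 245 and 274 CPM at 12 h (0.68 ± 0.16, adjusted p = 0.0205), a call lost without either 12 h library (0.77 and 0.59). With all 14 libraries neither was called (adjusted p = 0.0784 for HSP90AA1 and 0.0831 for HSPA5), nor was either with DESeq2 (adjusted p = 0.132 and 0.0515). Of 42 genes of the integrated and unfolded protein stress responses, 2 (4.76%) were higher and 3 (7.14%) lower. These 5 calls became 3 without either 3 h library, 2 without 12 h replicate 1, 9 without either vehicle library and 1 after GC correction.

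Genes of the ribosome and its assembly were called in both directions. Of 79 ribosomal protein genes, 3 (3.80%) were higher and 3 (3.80%) lower, against 2.35% and 5.79% of all genes. The median was -0.0074. RPL9 was the member with a call that held in every leave-out, from 1230 and 1198 CPM to 943 and 927 CPM (-0.38 ± 0.05, adjusted p = 0.00149), or -0.20 after GC correction. After that correction 3 members were higher and 6 lower, 2 of the calls being shared. The 6 calls became 2 without 3 h replicate 1, 3 without any other 3 h or 12 h library, 14 without either vehicle library and 2 with all 14 libraries. Of 44 ribosome biogenesis genes, 2 (4.55%) were higher and 3 (6.82%) lower. NCL, the nucleolin gene, rose from 506 and 506 CPM to 718 and 703 CPM (0.49 ± 0.063, adjusted p = 0.00137) and held in every leave-out and after GC correction. NPM1, encoding the nucleolar protein nucleophosmin, was at -0.18 (adjusted p = 0.0208), a call lost without either 3 h library (-0.19 and -0.20), without 12 h replicate 2 (-0.17), after GC correction (-0.08), after thinning (-0.13) and with all 14 libraries (adjusted p = 0.240). The biogenesis list had 1 or 2 calls without any 1 of the 3 h or 12 h libraries, 8 without either vehicle library, 3 after GC correction and 1 with all 14 libraries.

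Further lists are set beside 2.35% higher and 5.79% lower of all genes. In the interferon list 1 (2.86%) was higher and 3 (8.57%) lower of 35. No member was higher in the next 4 lists. Lower were 2 of 35 (5.71%) for hypoxia and glycolysis, and 1 of 28 (3.57%) for snoRNA hosts. For TGF-beta and BMP 1 of 28 (3.57%) was lower, and for NF-kB targets 1 of 22 (4.55%). AHR and NRF2 targets had 1 higher and 1 lower of 22 (4.55% each), and clock genes 1 and 1 of 20 (5.00% each). Autophagy and lysosome genes had none higher and 3 of 36 (8.33%) lower. Of 6 metallothionein and zinc genes tested, 2 were lower, and of 18 small structural RNAs, 2 were lower. After GC correction the interferon list had 1 higher and 0 lower members, and snoRNA hosts and AHR and NRF2 targets had 0 calls. The metallothionein list then had 1 call, autophagy and lysosome 2, and hypoxia and glycolysis 3. With all 14 libraries, snoRNA hosts, AHR and NRF2 targets and small structural RNAs had 0 calls. With 1 library left out, calls per list ranged from 1 to 5 for interferon, 0 to 4 for snoRNA hosts and for AHR and NRF2, 2 to 6 for autophagy and lysosome, 1 to 3 for small structural RNAs and 0 to 2 for the other 5. RPPH1, the RNA of RNase P, went from 3655 and 3533 CPM to 2776 and 2275 CPM (-0.51 ± 0.073, adjusted p = 0.00234). It held in every leave-out and after GC correction, but with all 14 libraries the call was lost (adjusted p = 0.0667). ELF3, an epithelial transcription factor gene, was the one colon epithelial marker of 13 tested that was called, from 48.8 and 58.5 CPM to 78.2 and 77.5 CPM (0.54 ± 0.14, adjusted p = 0.0327). Its vehicle libraries had 91.4 and 68.7 CPM, and the call was lost without 3 h replicate 1 (0.39), without either 12 h library (0.53 both times) and after GC correction (0.42).

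The largest fold changes were in genes with few counts. Among the 12 higher genes of greatest change with a mean log2 CPM of at least 1, LINC01089, a long intergenic noncoding RNA at chr12:121795267-121803906, had the call that held in every leave-out. It had 4.66 and 3.19 CPM at 3 h and 10.4 and 12.9 CPM at 12 h, 2.90-fold higher (log2 fold change 1.54 ± 0.27, adjusted p = 0.00599). ALPK3, a muscle-type alpha kinase gene, had the greatest change, from 1.79 and 0.752 CPM to 4.67 and 5.75 CPM (2.01 ± 0.51, adjusted p = 0.0306). Its call was lost without 3 h replicate 2 (1.5), without either 12 h library (2.17 and 1.86), after GC correction (1.89) and after thinning (1.76). S1PR5, a sphingosine phosphate receptor gene, and APOBEC3F, a cytidine deaminase gene that restricts retroviruses, were at 1.60 and 1.47, with calls lost without 12 h replicate 1 (1.64 and 1.53) and without 1 of the 3 h libraries (1.39 and 1.30). Thinning also ended the call of S1PR5 (1.22). DESeq2 gave no adjusted p for LINC01089, ALPK3, S1PR5 or APOBEC3F, nor for CHSY3 described below, so it neither kept nor ended their calls.

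Among the 12 lower genes of greatest change, calls held in every leave-out for SMG1P3, RGPD5 and LINP1. LINP1, a long intergenic noncoding RNA with a role in the repair of DNA breaks, had 13.1 and 10 CPM at 3 h and 4.24 and 3.84 CPM at 12 h (-1.49 ± 0.25, adjusted p = 0.00403), with vehicle libraries at 7.62 and 8.08 CPM between them. After thinning it was not called (-1.11, adjusted p = 0.0683). RGPD5 had 47.1 and 36.9 CPM at 3 h and 4.31 and 5.75 CPM at 12 h (-3.19 ± 0.27, adjusted p = 0.000318). It has near-identical copies, as has the pseudogene SMG1P3, which was at 0.00 and 6.85 CPM at 12 h, so their values are uncertain. The value for SMG1P3 was -4.18 with both 12 h libraries, -1.48 without 12 h replicate 1 and -12.30 without 12 h replicate 2, and DESeq2 did not call it (-2.47, adjusted p = 0.532). FES, a tyrosine kinase gene, had 15.2 and 13.4 CPM at 3 h and 4.24 and 6.85 CPM at 12 h (-1.54 ± 0.23, adjusted p = 0.00272), and CHSY3, a chondroitin synthase gene, 3.40 and 5.72 and then 0.568 and 1.10 CPM (-2.74 ± 0.47, adjusted p = 0.00509). Both lost their calls without 12 h replicate 1 (-1.06 and -2.06), and CHSY3 also after thinning (-2.25).

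Set beside vehicle, the 12 h libraries differed in 2163 genes (11.4%), 645 higher and 1518 lower, and the 3 h libraries in the 13 counted above. These comparisons share libraries with the one between 12 h and 3 h, so their counts are given only side by side. For SRRM2, MKI67, MT-CYB, LBR, CCNG1, NT5E and H4C12, the change against vehicle at 12 h was 1.05, 0.67, 0.88, -0.94, -0.89, -1.17 and -0.51, and at 3 h -0.16, -0.011, 0.027, -0.17, -0.17, -0.066 and -0.005. For these genes the 12 h libraries were called against vehicle and the 3 h libraries were not. For DUSP5, THBS1, DKK1, PLAU, FOS and RNF43 the 12 h libraries were not called against vehicle, with log2 fold changes from -0.28 to 0.22.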

How the data were processed

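Total RNA libraries of the time-course set (2 of vehicle, 2 of 3 h and 2 of 12 h of 5-Ph-IAA) were analysed from the authors' deposited gene tables. Per the file headers these hold RSEM expected counts, TPM and gene lengths for 78686 identifiers. The submitters' processing notes name STAR 2.7.10b, RSEM, DESeq2 1.48.1 and hg38 (GRCh38), and the annotation release is not given in the sources used here. Symbols were found for 42165 identifiers (53.6%) and GENCODE 29 positions for 57288 (72.8%). RSEM shares reads among similar genes, so values of near-identical copies are estimates.

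Expected counts were rounded and tested with edgeR 4.0.16 in R 4.3.3: TMM scaling, filterByExpr (minimum count 10, minimum total 15), quasi-likelihood F tests on all 6 libraries with 3 residual degrees of freedom, two-sided, Benjamini-Hochberg over 19049 genes. CPM were scaled by TMM. The SE is the fold change over the square root of F. TPM from the deposited tables were used for cell type markers only. GC content is that of the longest GENCODE 29 transcript, known for 89.6% of tested genes; the correction removes a lowess trend (span 0.3) per library.

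The comparison, members and gene lists were chosen with earlier results of these data known. Named genes were HNRNPU, up to 12 per direction with the greatest change among called genes (mean log2 CPM at least 1, non-overlapping libraries), and up to 6 called members per list by p; SON, SRRM1, SAFB, SMC1A and other list members outside that rule were named after their values were seen. In counts simulated from these libraries, the test recovered 44.4% of genes changed by a log2 of 1 and 65.6% of those changed by 2. Some named genes are not reported here. Same-numbered replicates did not deviate together (r from -0.0297 to 0.0230). Alternatives were DESeq2 1.42.0, limma 3.58.1 voom, other scaling and filters, thinning to 3.54 M counts (M, 1e6), a fit on all 14 libraries, a replicate block and each library left out. GC corrections and the use of whole expected counts alone were added after seeing the data.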

Additional observations from a re-analysis of the deposited data

How the results depend on the processing

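Against 1551 genes called between 12 h and 3 h, limma voom with quality weights called 3093 (36.2% of them higher, against 28.9%), the test with no low-count filter 2448, the GC correction 753 (43.7% higher) and the correction for GC and length 705 (39.4% higher). A filter at a mean log2 CPM of at least 1 raised the share of higher genes to 41.0%. With 1 library left out the count ranged from 612 (without 12 h replicate 1) to 2315 (without vehicle replicate 1). For 12 h against vehicle (2163 genes), the GC correction called 794, the GC and length correction 842 and the replicate block with GC correction 1130, and leaving out 1 library gave 961 to 2446. For 3 h against vehicle (13 genes), the counts were 54 with DESeq2, 50 with limma voom, 193 with no filter, 30 with the mean filter, 45 with the replicate block, 35 with the block and GC correction and 34 with whole expected counts only, and 23 to 283 with 1 library left out; the direction stayed towards higher genes in each. Where 1 library was left in a group, its spread was taken from the rest. Replicate numbers did not pair the libraries, and the replicate block called 1901 genes between 12 h and 3 h, or 1071 (45.4% higher) with the GC correction. Of 144 called named genes, RPS3A reversed, at 0.026 with the GC and length correction, with -0.18 before it. The other called ones kept their direction under the alternatives run. Outside these 144, the called list members COX7A2 (-0.30) and KIF20B (-0.32) reversed after GC correction, at 0.12 and 0.06, where neither was called. Of the 144, 50 kept the call with each library left out and 83 after GC correction; 60 lost it without 3 h replicate 1, 49 without 3 h replicate 2, 78 without 12 h replicate 1, 33 without 12 h replicate 2, 49 with all 14 libraries and 35 after thinning. Except where a construction removes samples or genes, the cause of these shifts was not tested. The shallow 12 h replicate 2 limits what genes of few counts can show.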
